A study of Mus musculus with 10 samples.

Results

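The EphA receptors and ephrin-A ligands described here are 10 genes, 6 receptors (Epha3, Epha4, Epha5, Epha6, Epha7 and Epha10) and 4 ligands (Efna1, Efna2, Efna3 and Efna5), found by symbol among the 54838 Ensembl genes counted in each library. All 10 were among the 16806 genes with enough counts to be tested. The libraries hold ribosome-bound RNA from Drd2-expressing, mossy cell-enriched populations of the dorsal or ventral hippocampus, isolated by translating ribosome affinity purification (TRAP), in which ribosomes carrying a green fluorescent tag are pulled down with an antibody. All mice were C57BL/6 males of about 10 weeks with the genotype MC-TRAP (Drd2-Cre;Eef1a1LSL.eGFPL10a/+) in both groups, and the 5 Dorsal and the 5 Ventral libraries came from different parts of the hippocampus. Each library came from the pooled tissue of 5 mice, and a replicate is therefore a pool. By the study's methods each hippocampus was cut into both parts, so that the groups share mice, but which dorsal and ventral pools share them is not given in the sources used here. Drd2-Cre also labels scattered GABAergic interneurons as well as neurons of the ventral subiculum, a region that was dissected away, and RNA of untagged cells can be carried through the precipitation.

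Eph receptors are receptor tyrosine kinases, and ephrins are their membrane-bound ligands on neighbouring cells. EphA receptors mainly bind ephrin-A proteins, which a lipid anchor holds on the cell surface. Contact signals both into the receptor cell (forward signalling) and into the ligand cell (reverse signalling), and it steers growing axons, often by repulsion, and shapes dendritic spines. Mossy cells are glutamatergic neurons of the dentate hilus whose axons reach the inner molecular layer of the dentate gyrus.

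All 6 EphA receptors were enriched in dorsal libraries and none of the 4 ephrin-A ligands was called in either direction. No ligand averaged above 14.6 CPM in either group, whereas Epha4, Epha5, Epha6 and Epha7 averaged 62.7 CPM or more. A missing call at such levels does not show that a ligand was unchanged. For Efna2, 2 SE on either side of the log2 fold change ran from -0.26 to 1.79, a range that holds the value of every receptor. The receptors were between 1.62-fold (Epha5) and 2.57-fold (Epha10) higher in dorsal libraries. A call needed both an adjusted p below 0.05 (edgeR's quasi-likelihood test, corrected over all 16806 genes) and a log2 ratio of mean CPM plus 1 beyond 0.58, where CPM is the count scaled to library size with TMM factors. Over all tested genes, dorsal-enriched calls made up 13.2% and calls in the ventral direction 8.38%. The median log2 fold change, dorsal over ventral, was 0.86 over the receptors, -0.22 over the ligands and -0.0073 over all tested genes. The receptors in this family that the study itself named (Epha4, Epha5 and Epha7) were picked from these same libraries, and so was Efna1. Their direction in these libraries is therefore not independent evidence. For Epha5 the study also showed in situ hybridization images of the hilus from the Allen Brain Atlas, which were not examined here. The study described Efna1 as higher in the ventral population. In the fit reported here, Efna1 lay in the ventral direction without a call.

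**Figure D1:**
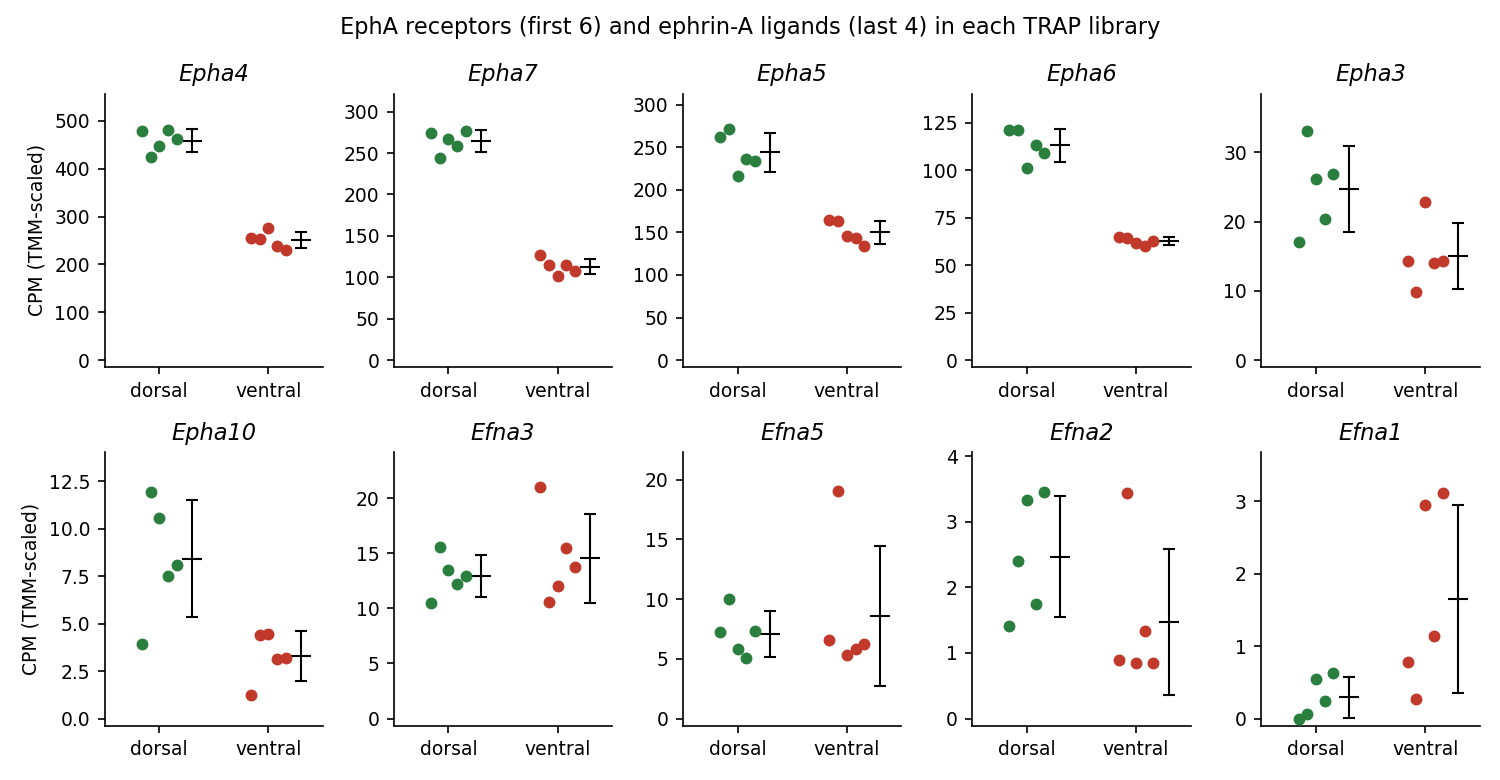
CPM (vertical axes, linear, each gene on its own scale) of the 10 genes in the 5 dorsal (green) and 5 ventral (red) libraries, with the group mean and SD beside the points. Epha4, Epha5, Epha6 and Epha7 separated completely, whereas the dorsal and ventral points of the other 6 genes overlapped.

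Epha4, a receptor that binds ephrins of both the A and the B class, was the most abundant member. It lies on chromosome 1 from 77367185 to 77515088 (GRCm38, minus strand). Its CPM was 479, 425, 447, 482 and 462 in dorsal replicates 1 to 5 and 256, 253, 276, 239 and 231 in ventral replicates 1 to 5. Every dorsal library was above every ventral library. The mean was 459 ± 23.8 CPM (SD, n = 5) in dorsal and 251 ± 17.2 CPM (n = 5) in ventral libraries, a log2 fold change of 0.87 (SE 0.083, edgeR adjusted p = 3.42e-05).

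Epha7 showed the largest fold change of the 4 abundant receptors. It lies on chromosome 4 from 28813131 to 28967499, on the plus strand. Dorsal libraries held 274, 244, 267, 259 and 276 CPM and ventral libraries 126, 115, 101, 115 and 108 CPM. The groups did not overlap. Epha7, which besides its full-length form is known in truncated forms without a kinase domain, was 2.34-fold higher in dorsal libraries (log2 fold change 1.22, SE 0.090, edgeR adjusted p = 6.53e-06). Counts per gene do not separate these forms.

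Epha5, a receptor known from axon targeting in the hippocampus, spans 362.6 kb of chromosome 5 (84054761 to 84417382, minus strand). Its CPM was 262, 272, 216, 237 and 234 in dorsal and 165, 163, 146, 143 and 134 in ventral libraries. All dorsal values lay above all ventral values. The difference was 1.62-fold (log2 fold change 0.70, SE 0.098, edgeR adjusted p = 0.000379). With a correction for GC content and transcript length it fell to a log2 fold change of 0.33 (edgeR adjusted p = 0.0140), under the fold threshold.

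Epha6, the longest gene of the group, spans 952.0 kb of chromosome 16 (59653483 to 60605531, minus strand). Dorsal libraries held 121, 121, 101, 113 and 109 CPM and ventral libraries 64.9, 64.1, 61.4, 60.2 and 62.7 CPM. The ventral libraries were close together, with an SD of 1.94 CPM around a mean of 62.7 CPM, and all lay below the dorsal ones. The log2 fold change was 0.85 (SE 0.095, edgeR adjusted p = 9.23e-05). Epha4, Epha5, Epha6 and Epha7 make up the 4 of 10 members in which no dorsal library reached down to a ventral one, a separation seen in this direction in 9.81% of all tested genes.

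These 4 receptors were all higher in dorsal libraries. The 250 bases upstream of their start sites (RefSeq, GRCm38.p6, shown 5′ to 3′ on the gene's strand) are given with Efna3, the most abundant ligand, for contrast. Capitals mark the GC box GGGCGG and the CCAAT box, searched on both strands, so that they also appear as CCGCCC and ATTGG. The windows are chr1:77515089-77515338 for Epha4, chr5:84417383-84417632 for Epha5, chr16:60605532-60605781 for Epha6, chr4:28812881-28813130 for Epha7 and chr3:89322940-89323189 for Efna3.
Epha4: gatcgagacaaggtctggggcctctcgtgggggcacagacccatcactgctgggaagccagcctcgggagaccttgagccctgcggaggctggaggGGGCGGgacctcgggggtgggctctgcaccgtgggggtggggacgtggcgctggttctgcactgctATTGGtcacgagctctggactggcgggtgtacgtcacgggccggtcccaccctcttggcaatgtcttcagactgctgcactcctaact
Epha5: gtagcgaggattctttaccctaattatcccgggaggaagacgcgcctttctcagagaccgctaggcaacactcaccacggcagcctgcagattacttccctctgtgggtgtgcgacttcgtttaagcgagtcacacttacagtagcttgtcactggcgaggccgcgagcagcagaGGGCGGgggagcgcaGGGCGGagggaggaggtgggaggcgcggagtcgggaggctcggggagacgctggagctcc
Epha6: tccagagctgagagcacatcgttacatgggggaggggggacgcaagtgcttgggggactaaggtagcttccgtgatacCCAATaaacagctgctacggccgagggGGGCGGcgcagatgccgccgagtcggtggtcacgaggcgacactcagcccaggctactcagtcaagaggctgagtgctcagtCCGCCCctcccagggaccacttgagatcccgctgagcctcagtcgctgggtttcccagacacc
Epha7: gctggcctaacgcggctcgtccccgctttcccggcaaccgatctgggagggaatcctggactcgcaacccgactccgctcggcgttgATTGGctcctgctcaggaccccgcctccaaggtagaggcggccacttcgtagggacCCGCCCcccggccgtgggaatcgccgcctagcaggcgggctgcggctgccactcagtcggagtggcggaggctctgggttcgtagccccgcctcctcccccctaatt
Efna3: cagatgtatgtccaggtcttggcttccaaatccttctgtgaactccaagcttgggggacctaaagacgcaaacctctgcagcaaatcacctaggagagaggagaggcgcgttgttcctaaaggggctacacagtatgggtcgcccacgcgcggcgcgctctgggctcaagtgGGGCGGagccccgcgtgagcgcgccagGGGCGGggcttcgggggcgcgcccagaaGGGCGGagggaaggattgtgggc
All 10 members matched a RefSeq promoter. A GC box was present in 5 of the 6 receptor promoters (not in Epha3) and in 4 of the 4 ligand promoters, compared with 32.7% of the 32851 mouse promoters of this length. A CCAAT box was present in 4 receptor promoters (Epha4, Epha6, Epha7 and Epha10) and in 0 ligand promoters, compared with 33.8% of all promoters. The letters TATAAA (12.4% of all promoters), CACGTG (6.02%), TGACGTCA (1.55%) and AGGTCA (14.0%) were found in 0 members on either strand. GC content ranged from 62.4% (Epha5) to 74.8% (Efna5), above the median of 52.4% over all promoters. The RefSeq start used here lies 886 bp from the GENCODE gene start for Epha10, 191 bp for Efna1 and 26 bp for Efna3. These matches describe the letters in each window only.

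The remaining receptors were less abundant and their groups overlapped. Epha3, a receptor for several ephrin-A ligands, lies on chromosome 16 from 63543534 to 63864175 on the minus strand. Its CPM was 17.1, 33.1, 26.1, 20.4 and 26.95 in dorsal and 14.4, 9.77, 22.9, 14.0 and 14.4 in ventral libraries. Ventral replicate 3 was above dorsal replicates 1 and 4. Its log2 fold change of 0.71 (SE 0.23, edgeR adjusted p = 0.0356) lost the call in 7 of the 10 fits with 1 library left out, namely dorsal replicate 2, 3 or 5 or ventral replicate 1, 2, 4 or 5, with adjusted p up to 0.0784. With replicate numbers as a block it was 0.72 (edgeR adjusted p = 0.0581) and not called.

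Epha10, whose kinase domain is regarded as catalytically inactive, is the shortest receptor gene at 36.9 kb (chromosome 4, 124880899 to 124917800, plus strand). Its CPM was 3.95, 11.95, 10.6, 7.51 and 8.09 in dorsal and 1.22, 4.402, 4.47, 3.16 and 3.21 in ventral libraries. The lowest dorsal library, replicate 1, was below ventral replicates 2 and 3. The log2 fold change of 1.36 was the largest among the receptors and also the least precise (SE 0.38, edgeR adjusted p = 0.0179), with 42 to 184 counts per dorsal and 22 to 68 per ventral library. With the share of read pairs that fell on no counted feature as a covariate, it was 0.078 (edgeR adjusted p = 0.958) and the call was lost.

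Among the ligands, Efna3 was the most abundant per length. Ephrin-A3 is known as a glial ligand of EphA4 at hippocampal spines. The gene lies on chromosome 3 from 89313899 to 89322965 on the minus strand, and 14.1% of its exonic bases are shared with Gm15998 on the opposite strand, whose reads cannot be told apart where strand was not used in counting. Efna3 measured 10.4, 15.6, 13.5, 12.2 and 12.96 CPM in dorsal and 20.97, 10.6, 11.99, 15.5 and 13.8 CPM in ventral libraries. The ranges overlapped. The log2 fold change was -0.17 (SE 0.21, edgeR adjusted p = 0.569), and 2 SE on either side run from -0.59 to 0.25, below the fold change of each of the 6 receptors.

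Efna5, a ligand known from topographic mapping of axons, is the only long ligand gene, spanning 277.1 kb of chromosome 17 (62604184 to 62881317, minus strand). Its CPM was 7.24, 10.005, 5.79, 5.04 and 7.31 in dorsal and 6.55, 19.0, 5.32, 5.82 and 6.23 in ventral libraries. Ventral replicate 2 stood far above the other 9 libraries. The log2 fold change was -0.27 (SE 0.37, edgeR adjusted p = 0.609), with 2 SE reaching from -1.004 to 0.46, and it was 0.24 (adjusted p = 0.5005) without that library.

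Efna2, also a mapping ligand, lies on chromosome 10 from 80179482 to 80190010 on the plus strand. It measured 1.41, 2.40, 3.34, 1.74 and 3.46 CPM in dorsal and 0.888, 3.43, 0.844, 1.33 and 0.850 CPM in ventral libraries. Ventral replicate 2 again stood apart, at the level of the 2 highest dorsal libraries, while the other ventral libraries lay below all dorsal ones. The log2 fold change of 0.76 did not pass (SE 0.51, edgeR adjusted p = 0.284), with 2 SE from -0.26 to 1.79. Without ventral replicate 2 it was 1.33 (adjusted p = 0.0427) and Efna2 was called dorsal-enriched.

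Efna1, known as a ligand of blood vessels, lies on chromosome 3 from 89271733 to 89281142 on the minus strand and was near the detection limit. It had 0, 1, 8, 4 and 8 counts in dorsal and 14, 3, 35, 18 and 66 counts in ventral libraries, where 3 counts correspond to 0.142 to 0.282 CPM depending on the library. In CPM these are 0, 0.0650, 0.545, 0.240 and 0.629 in dorsal and 0.777, 0.264, 2.96, 1.14 and 3.12 in ventral libraries. Ventral replicate 2 lay within the dorsal range and the other 4 ventral libraries above it. No dorsal library exceeded 1 CPM, so that Efna1 entered the test only through 3 ventral libraries and had to differ in that direction. Its log2 fold change of -2.44 (SE 0.89) missed the threshold (edgeR adjusted p = 0.0544), but passed in 8 of 26 alternative fits, over which adjusted p ran from 0.0125 to 0.148. The 5 endothelial markers (Cldn5, Pecam1, Flt1, Cdh5 and Slco1a4) summed to 9.69 to 43.7 CPM in dorsal and 9.33 to 52.3 CPM in ventral libraries, with 0 of 5 called, none at 0 throughout and all 5 fold changes in the ventral direction. Their part in the Efna1 values was not tested.

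**Figure D2:**
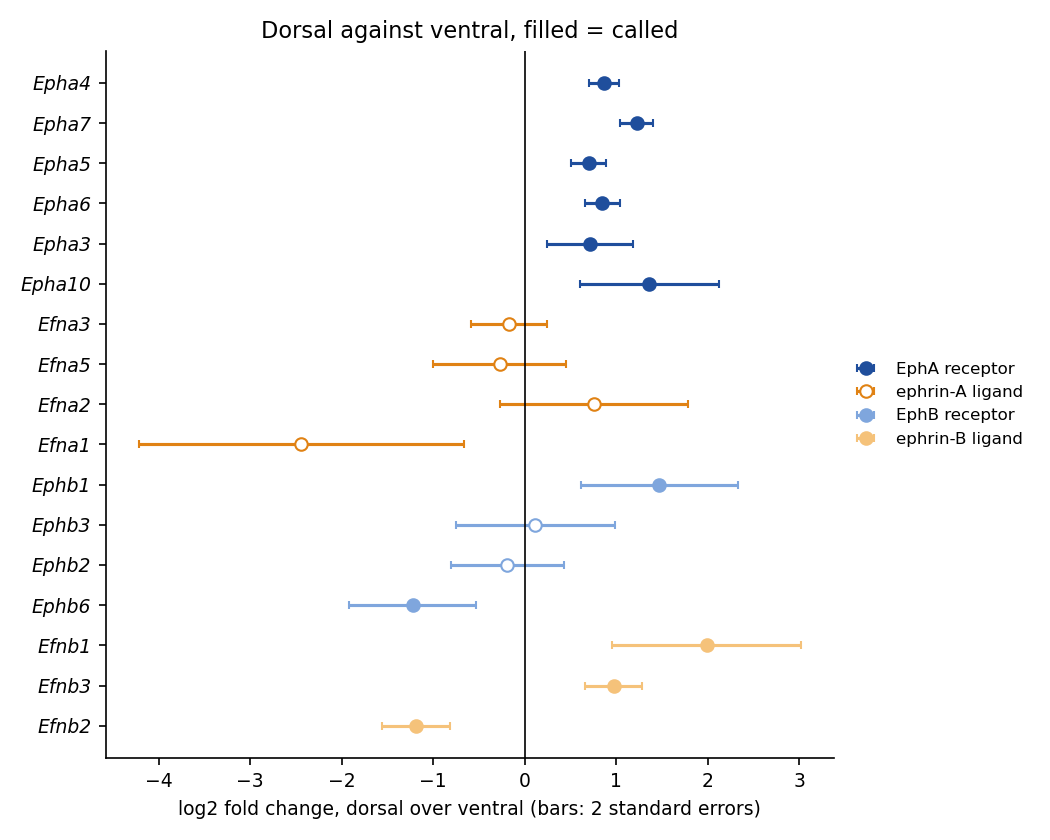
Log2 fold change, dorsal over ventral (horizontal axis), of the tested EphA, ephrin-A, EphB and ephrin-B genes, with bars of 2 standard errors. Filled points were called, open points were not. The 6 EphA receptors all lie to the right of 0, whereas the EphB receptors and ephrin-B ligands have called genes on both sides.

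To compare levels between genes, CPM was divided by the exonic length in kb (RPKM). In dorsal libraries the order was Epha4 (57.0 RPKM), Epha7 (26.7), Epha6 (21.4), Epha5 (14.6), Efna3 (5.32), Epha3 (2.85), Efna5 (1.76), Epha10 (1.17), Efna2 (1.16) and Efna1 (0.162). Neighbouring ranges overlapped between Epha3 and Efna5, Efna5 and Epha10, and Epha10 and Efna2. In ventral libraries it was Epha4 (31.2 RPKM), Epha6 (11.8), Epha7 (11.4), Epha5 (8.98), Efna3 (5.98), Efna5 (2.13), Epha3 (1.74), Efna1 (0.902), Efna2 (0.689) and Epha10 (0.457). There only Epha4 against Epha6 and Epha7 against Epha5 were neighbours without overlap. Exonic length counts all annotated exons of a gene, which lowers the RPKM of genes with long or alternative ends such as Epha5 (16.7 kb).

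Receptor totals differed between the regions, whereas ligand totals overlapped. Summed RPKM of the 6 receptors came to 124 ± 3.49 for dorsal and 65.6 ± 3.07 for ventral libraries (mean ± SD over 5 libraries), and that of the 4 ligands to 8.39 ± 1.38 and 9.70 ± 1.20. The ratio of the sums was 12.1 to 19.0 in dorsal and 6.16 to 8.24 in ventral libraries. Giving every gene the same weight, mean log2(CPM + 0.5) of the receptors minus that of the ligands was 4.62 ± 0.197 in dorsal and 3.48 ± 0.155 in ventral libraries, a difference of 1.14 on the log2 scale. It ranged from 0.79 without Efna1 to 1.44 without Efna2 when single genes were left out. These scores are described without a test.

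**Figure D3:**
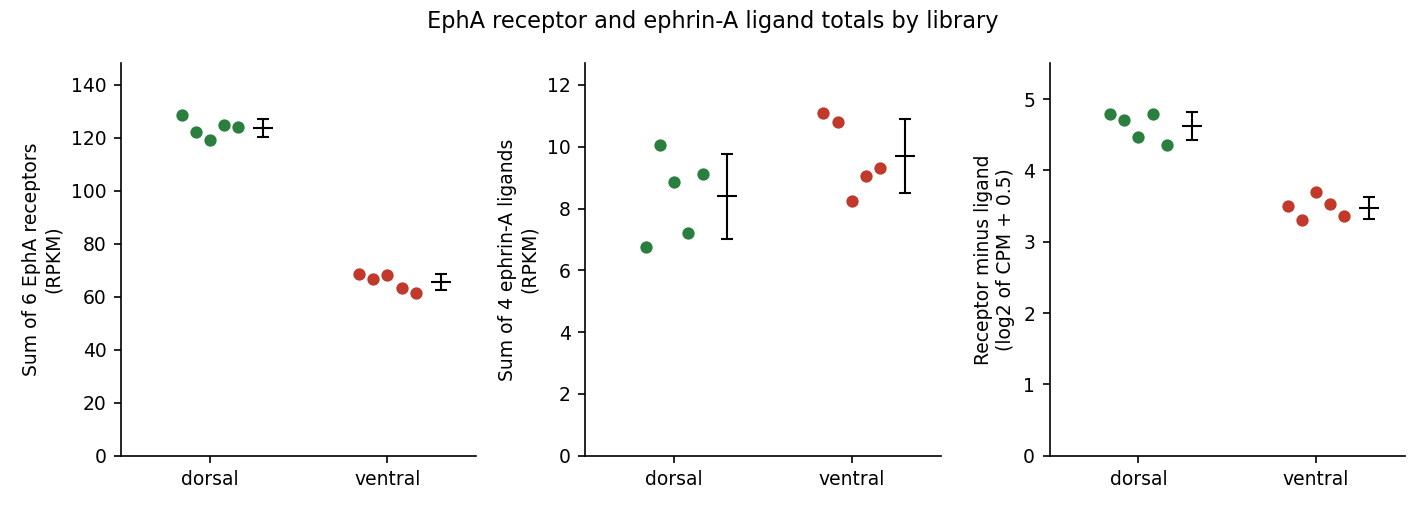
Summed RPKM of the 6 EphA receptors (left), of the 4 ephrin-A ligands (middle) and the receptor minus ligand difference in mean log2(CPM + 0.5) (right) in each library, with group mean and SD. Receptor sums lie at 119 to 128 in dorsal and 61.5 to 68.5 in ventral libraries, while ligand sums overlap.

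The make-up of the receptor sum moved little apart from Epha7. Epha7 took 21.6 ± 1.06% of summed receptor RPKM in dorsal and 17.4 ± 1.42% in ventral libraries, without overlap (20.2 to 22.7% against 15.1 to 18.7%). Epha4 took 46.1 ± 1.72% and 47.5 ± 1.60%, and Epha6 17.3 ± 1.08% and 18.1 ± 0.801%, both overlapping. Epha5 took 11.8 ± 0.979% in dorsal and 13.7 ± 0.795% in ventral libraries, also overlapping (10.9 to 13.3% against 12.8 to 14.6%). Among the ligands Efna3 held most of the sum in both regions, 63.6 ± 3.92% and 61.7 ± 14.2%, except in ventral replicate 2, where Efna5 (43.6%) exceeded Efna3 (40.1%).

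Long genes as a whole leaned towards dorsal libraries. Among protein-coding genes the median log2 fold change was -0.18 for 5585 genes spanning under 20 kb, of which 7.02% were called dorsal-enriched, and 0.16 for 532 genes over 300 kb, of which 19.9% were. Epha3, Epha5 and Epha6 belong to the second class, Epha4 and Epha7 to that of 100 to 300 kb (1694 genes, median 0.14, 15.9% called dorsal-enriched), and Efna1, Efna2 and Efna3 to the first. Each of the 6 receptors lay above the median of its class. When a smooth trend with genomic span was removed from each library, log2 fold changes were 0.75 for Epha4, 0.59 for Epha5, 0.70 for Epha6, 1.10 for Epha7 and 1.39 for Epha10, all still called, and 0.61 for Epha3, which was not (edgeR adjusted p = 0.0711). Transcript GC mattered too. Dorsal-enriched calls made up 11.4% of genes under 45% GC (Epha3, Epha5, Epha7 and Efna5 among them). They made up 6.13% of genes above 55% (Epha10, Efna2 and Efna3 among them). With the GC and length correction, Epha3 (0.59, edgeR adjusted p = 0.0618) and Epha5 were not called.

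**Figure D4:**
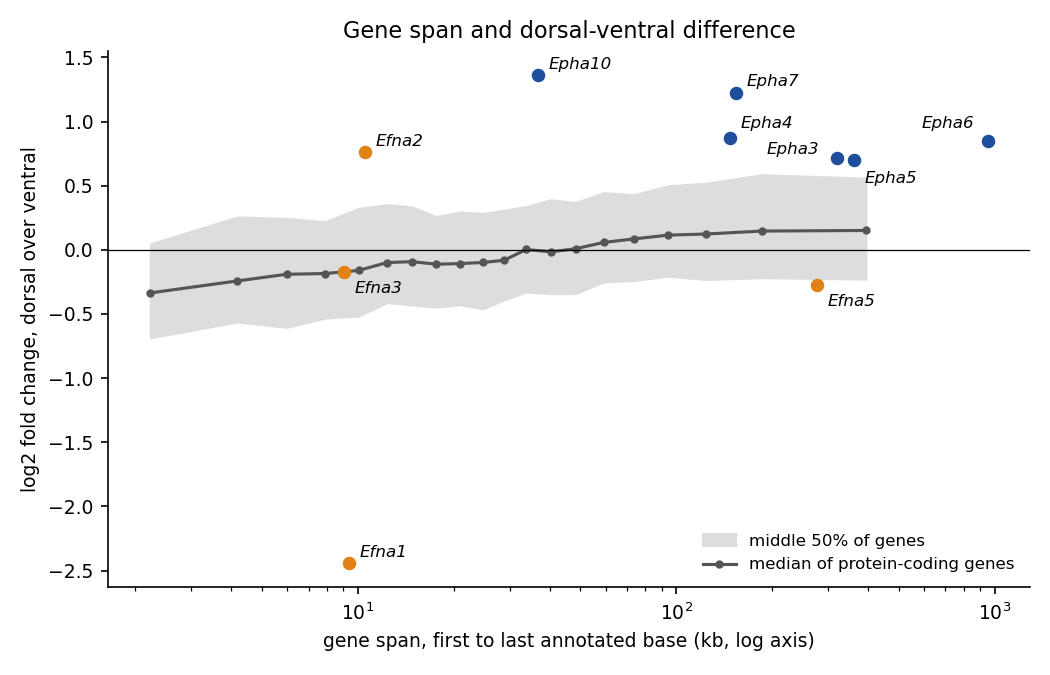
Log2 fold change, dorsal over ventral (vertical axis), against genomic span in kb (horizontal log axis). The line is the median and the band the middle 50% of protein-coding genes in 20 classes of equal size, and points are EphA receptors (blue) and ephrin-A ligands (orange). The median rises from -0.34 in the shortest class to 0.15 in the longest, and the 5 receptors within the range of the band lie above it.

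Library composition also differed between the groups. The share of read pairs that HTSeq assigned to no counted feature, which can include introns, was 21.8 to 33.9% in dorsal and 11.6 to 19.3% in ventral libraries (two-sided exact permutation test, p = 0.00794, the smallest that 5 against 5 allows). With this share as a covariate, the fits still called Epha4 (log2 fold change 0.90, edgeR adjusted p = 0.0109), Epha5 (0.85, adjusted p = 0.0249), Epha6 (1.02, adjusted p = 0.0111) and Epha7 (1.34, adjusted p = 0.00272) but not Epha10 (0.078, adjusted p = 0.958) or Epha3 (-0.17, adjusted p = 0.829). Since the share separates the groups, its part in the values of Epha3 and Epha10 and that of the region cannot be told apart.

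**Figure D5:**
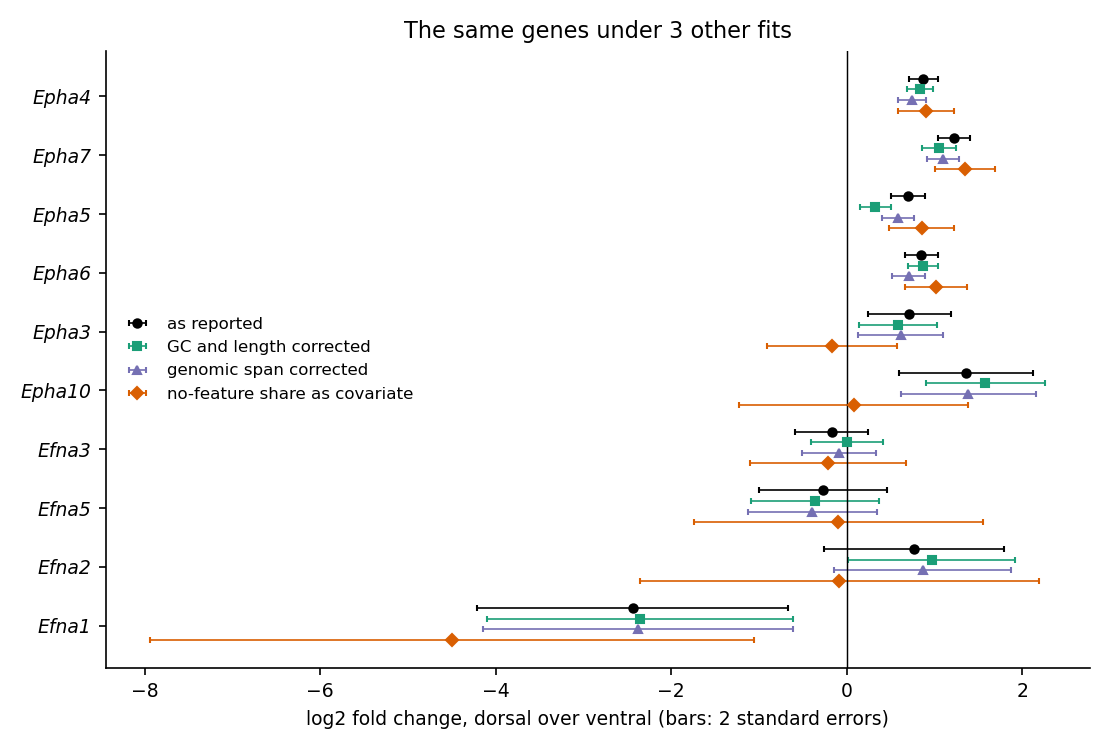
Log2 fold change, dorsal over ventral (horizontal axis), of the 10 members as reported and in 3 other fits, with bars of 2 standard errors. Epha4, Epha6 and Epha7 stay beyond 0.58 in all 4 fits, Epha5 falls to 0.33 with the GC and length correction, and Epha3 and Epha10 move to about 0 with the no-feature share as covariate.

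Several markers of glial cells were higher in dorsal libraries along with the receptors. The 9 oligodendrocyte lineage markers reported here summed to 429 to 648 CPM in dorsal and 258 to 457 CPM in ventral libraries, an overlap, with 2 called dorsal-enriched (Mbp and Mobp) and 0 ventral-enriched. Sox10 (log2 fold change -0.84) and Pdgfra (-0.46) lay in the ventral direction without a call. The rest of these markers had positive values, with Cnp (0.0091) and Cspg4 (0.030) near 0. The 6 astrocyte markers summed to 1834 to 2088 and 660 to 1212 CPM without overlap, with 3 called dorsal-enriched (Gfap, Aqp4 and Slc1a2) and 1 ventral-enriched (Aldh1l1). Slc1a2 averaged 1774 (dorsal) against 870 CPM (ventral) and made up most of each sum, which therefore mainly follows this gene. Aqp4 also separated, whereas Gfap, Slc1a3, Gja1 and Aldh1l1 overlapped. Of the 7 CA3 and CA2 pyramidal cell markers, 1 was called dorsal-enriched (Bok, 97.0 against 53.6 CPM), and their sums were 267 to 290 and 178 to 221 CPM. The 10 interneuron markers summed to 3479 to 4625 and 4120 to 5375 CPM, mostly Gad2. Of them 1 was called dorsal-enriched (Dlx6) and 3 ventral-enriched (Sst, Pvalb and Lhx6). The 5 CA1 markers summed to 175 to 257 and 253 to 375 CPM (0 called dorsal-enriched, 2 ventral-enriched). Sums were 467 to 592 and 421 to 616 CPM for the 7 granule cell markers (2 and 1). They were 25.5 to 42.2 and 19.99 to 34.9 CPM for the 7 microglial markers (1 and 0). For the 6 ventral subiculum markers they were 14.2 to 29.9 and 12.3 to 15.7 CPM (1 and 0 of 5 tested). Over all tested genes, dorsal-enriched calls made up 13.2% and ventral-enriched calls 8.38%. None of these markers was at 0 in all libraries, and the part of these cells in the receptor values was not tested. In such pooled tissue, fewer cells of a type and less RNA per cell cannot be told apart.

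The 7 mossy cell markers had sums of 1671 to 1958 CPM (dorsal) and 1762 to 2074 CPM (ventral). Differences in opposite directions lay behind these similar sums. Dorsal against ventral, Gria2 averaged 1143 against 651 CPM and Gria3 271 against 167 CPM. Satb1 went the other way at 270 against 450 CPM, as did Calb2 at 65.2 against 616 CPM. The sums therefore do not show whether mossy cell content was alike. Gria2 and Gria3 were called dorsal-enriched and Satb1 and Calb2 (calretinin) ventral-enriched, Drd2 was at 28.1 and 20.7 CPM and not called, and Csf2rb2 was too low to be tested. Gad2, at 2853 and 3174 CPM, is a marker of GABAergic interneurons.

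The rest of the A class was near the detection limit. Epha1, Epha2 and Epha8 were below 1 CPM in all 10 libraries, with 32 and 14, 18 and 20, and 13 and 12 counts in all over dorsal and ventral libraries. Efna4, the neighbour of Efna1 and Efna3 on chromosome 3, had 5 counts over the dorsal libraries and 43 over the ventral ones, and passed 1 CPM only in ventral replicate 3. None of the 4 was tested.

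The B class did not share a direction among its receptors. Of 7 tested genes 3 were called dorsal-enriched (13.2% over all tested genes) and 2 ventral-enriched (8.38%). The dorsal-enriched genes were Ephb1 (log2 fold change 1.47, SE 0.43), Efnb1 (1.99, SE 0.52) and Efnb3 (0.97, SE 0.16). The ventral-enriched genes were Ephb6 (-1.22, SE 0.35) and Efnb2 (-1.19, SE 0.19). Efnb1 exceeded 1 CPM in 4 dorsal libraries and 1 ventral library. Without its dorsal libraries it would not have passed the filter on low counts, which favoured a dorsal call. Efnb2 held 19.9 to 27.3 CPM in dorsal and 37.7 to 82.5 CPM in ventral libraries, without overlap (all tested genes in this direction, 8.36%), and it is an ephrin-B that Epha4 can bind. No test compared the A with the B class.

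Calls among downstream genes went in both directions. Of 24 forward signalling genes, 4 were called dorsal-enriched, namely the Rac activator Tiam1 (0.87), the Rac-inhibiting Chn2 (1.24), the kinase Rock1 (0.60) and the adaptor Nck1 (1.01), and 1 ventral-enriched, Cdk5 (-0.65), with a median log2 fold change of 0.051 over the list. The GTPases Rhoa, Rac1 and Cdc42, at -0.45, -0.26 and -0.24, were not called. Among 9 genes of reverse signalling and coreceptors, 2 were called dorsal-enriched, the ephrin-A coreceptor Ret (1.45, at 6.63 against 2.44 CPM) and Dok1 (1.05 against 0.0391 CPM), and 0 ventral-enriched, with a median of 0.29. Dok1 passed the filter on low counts only through dorsal libraries and had to differ in that direction. Among 11 genes of turnover, shedding and phosphatases, Adam10, a protease that sheds ephrins, was called dorsal-enriched (0.68), the phosphatase Acp1 ventral-enriched (-0.65), and the other 9 were not called (median 0.094). Dorsal calls made up 13.2% and ventral calls 8.38% of everything tested, and nothing is read from list counts near these shares.

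The 5 protein-coding genes whose profile over the 10 libraries was most like that of Epha5 were Jph1, Naa16, Gria3, Lats2 and Prkca, at a root mean square distance of 0.077 to 0.094 between log2(CPM + 0.5) values centred on each gene's mean. Their log2 fold changes ran from 0.60 to 0.87. The distance includes the difference between the groups, so that the nearest genes have a fold change like that of Epha5 by construction. By the same measure Epha6 ranked 9 of 13548 genes (0.0997), Epha4 67, Epha7 1128, Epha3 2809 and Epha10 8626. The ligands ranked 5335 (Efna3), 5843 (Efna2), 7906 (Efna5) and 13268 (Efna1). Scatter between libraries adds to the distance, so that a distant rank, such as that of Epha10, does not mean another direction.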

How the data were processed

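Per the labels and the study's methods, RNA from TRAP was amplified with the Ovation RNAseq V2 kit, made into TruSeq libraries and sequenced as 50 bp paired ends. The authors aligned reads to GRCm38 with STAR 2.5.2b and used HTSeq 0.7.2 to count reads on each Ensembl gene. The deposited values are these raw counts per gene, unnormalized. The annotation release and the strand setting are not given in the sources used here. Groups and replicate numbers came from the sample titles.

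Rows of reads on no counted feature, ambiguous or unplaced were left out of library sizes and tests. Reads on no counted feature, introns possibly included, made up 11.6 to 33.9% and ambiguous reads 5.92 to 8.66% of read pairs. Dorsal libraries held 11138676 to 16779821 counts on genes and ventral libraries 11618625 to 20594364 (exact permutation test, p = 0.421). The floor of 3 counts covers counting error alone, since reads amplified without molecular identifiers do not each stand for a molecule. Pairs of libraries within a group had a chi-square over its degrees of freedom of 4.36 to 45.1, far above sampling noise, and none was a duplicate. P-values measure the spread between pools of mice.

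Genes that passed 1 CPM in 2 or more libraries were fitted with edgeR 4.0.16 (R 4.3.3) using TMM factors and glmQLFTest, with Benjamini-Hochberg adjustment over 16806 genes. The standard error is the absolute log2 fold change over the square root of F. GENCODE M21 (GRCm38) matched 54809 of 54838 identifiers and gave coordinates and lengths; promoters came from RefSeq. The default dispersions of edgeR 3 were kept after those of edgeR 4 had also been seen. With the edgeR 4 dispersions, Efna1 was called ventral-enriched (edgeR adjusted p = 0.0125). The fit was tested on simulated data. A first bar on recovered genes over all levels was not reached because of genes at low levels. It was replaced by bars on abundant genes, false calls and bias after that value was seen. Python 3.11.15, pandas 2.3.3, scipy 1.17.1 and matplotlib 3.10.9 made tables and figures.

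The members and gene lists were chosen with earlier results of these data known. Named were all members, the rest of the Eph and ephrin genes, called genes of the pathway lists (at most 4 per list and direction) and the 5 genes nearest to Epha5. Marker genes, Rhoa, Rac1 and Cdc42 were named after their values were seen. Alternatives were DESeq2 size factors, upper-quartile factors or total counts, no filter or CPM above 1 in 5 libraries, DESeq2 1.42.0, the likelihood-ratio test, other fold thresholds, a replicate block, corrections for GC and length or for span (mgcv 1.9.3), the no-feature share as covariate, protein-coding genes alone and each library left out. The edgeR 4 dispersions were added after the data were seen. An oligodendrocyte marker is not reported here. No protein sequences were used here.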

Additional observations from a re-analysis of the deposited data

Results flagged for a closer look

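Ventral replicate 2 stood apart in 2 of the 20 gene-by-group sets of 5 libraries examined, by the size of the gap to its nearest neighbour relative to the range of the group. Efna2 measured 3.43 CPM there, against 0.844 to 1.33 CPM in the other ventral libraries. Efna5 measured 19.0 CPM there, against 5.32 to 6.55 CPM. Chance marks about 1 in 20 such sets. In the same library the astrocyte markers (660 CPM), the 9 oligodendrocyte lineage markers (258 CPM) and the endothelial markers (9.33 CPM) had their lowest sums of all 10 libraries, and Ephb1 (9.51 CPM) and Ephb2 (21.5 CPM), chosen after their values were seen, had their highest ventral levels. Slc1a2 made up most of the mean astrocyte sum in both groups. Whether these marker sums and the Ephb1 and Ephb2 levels move with the ligand values for a shared reason was not tested.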

How the results depend on the processing

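Epha4, Epha6 and Epha7 were called dorsal-enriched in all 27 alternative fits, and Epha3 in 14, Epha5 in 25 and Epha10 in 26 of them. The number of receptors called dorsal-enriched was 4 to 6, and 0 were called ventral-enriched. The number of ligands called ventral-enriched rose from 0 to 1, always Efna1, with no expression filter, the DESeq2 Wald test, the likelihood-ratio test, the replicate block, the block with the GC and length or the span correction, and the edgeR 4 dispersions. Leaving out 1 library gave 0 to 1 ligands called ventral-enriched and 0 to 1 called dorsal-enriched, the 1 arising without ventral replicate 2 in both cases (Efna1 -2.71, adjusted p = 0.0278, and Efna2). Signs turned for Efna3 with the GC and length correction (0.0049, and 0.045 with the block), for Epha3 (-0.17) and Efna2 (-0.086) with the no-feature share as covariate, and for Efna5 when libraries were left out (-0.43 to 0.24). The receptor minus ligand difference was 0.79 with CPM above 1 in 5 libraries, where Efna1 drops out, and 0.99 to 1.27 in the other alternatives that keep every library. Over all genes the covariate left 543 dorsal-enriched and 215 ventral-enriched calls, against 2217 and 1408. The span correction gave 2063 and 1797. No filter moved the median log2 fold change of all genes to 0.11.

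Nothing states that equal replicate numbers share mice, and the data showed no such pairing: deviations from the group means correlated between -0.027 and 0.055 for equal and between -0.13 and 0.089 for unequal numbers. With the replicate block 5 receptors were called, Epha3 being lost (0.72, adjusted p = 0.0581), Efna1 was called (-2.56, adjusted p = 0.0287), and the other 8 members kept their calls. Genes under about 0.142 to 0.282 CPM are within the counting floor, which limits Efna1 and the rest of the A class.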
